A study of Homo sapiens with 9 samples.

Results

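OV90CisR1 is a cisplatin-resistant line of the ovarian cancer line OV90, and its 3 libraries were compared here with the 3 libraries of OV90, 6 of the 9 libraries of the study. The remaining 3 libraries are of OV90CisR2, another resistant line. Per the labels, OV90 was sensitive and was kept in MCDB-105 medium with fetal bovine serum and antibiotics. OV90CisR1 and OV90CisR2 were kept in the same medium with cisplatin added, so resistance and exposure to the drug cannot be told apart. Whether each resistant line is 1 clone or a mixed population, and at what dose and for how long it was exposed, is not given in the sources used here. Separate cultures are not stated for the replicates, and p-values here therefore measure only the spread between libraries, which may be technical. In the main fit this spread is pooled over all 9 libraries, those of OV90CisR2 included.

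Cisplatin is a platinum drug that crosslinks DNA bases. Cells that survive it have been described with changed uptake, export, sequestration and detoxification of platinum, changed repair and death signalling, and changed ion transport. Lysosomes, the acidic organelles that degrade proteins, glycans and lipids, can take up platinum compounds, and their hydrolases, membrane proteins and proton pump are partly controlled together by transcription factors of the MiT family. The ion channels, sugar-bearing surface proteins and contractile proteins described below set membrane voltage, the cell coat and cell tension.

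Messenger RNA was measured by sequencing of 3′ ends (QuantSeq), in which a read is meant to mark the end of a transcript. Whether every read does so was not tested. The libraries held 5825708 to 6211177 reads in OV90CisR1 and 6187238 to 7594704 reads in OV90, with 18344 to 19153 and 17761 to 18805 genes above 0. All values below are normalized reads, that is, whole read counts divided by 1 factor per library, and 3 reads correspond to a value between 2.62 and 3.37. Replicate 3 stood apart in both lines. OV90CisR1 replicate 3 correlated with its own group at 0.941 to 0.942, against 0.980 between the other libraries of that line, and OV90 replicate 3 at 0.955 to 0.957, against 0.979. Counts over all genes and over the lists that moved by more than 1.5 times are therefore also given without these 2 libraries. Several defining markers of ovarian carcinoma were near 0 in both lines: PAX8 and MUC16 had 1 read each in OV90CisR1 and 0 in OV90, and MSLN, WFDC2, KRT19, CLDN3, SOX17 and CDH6 had 0 in OV90CisR1. Of 20 markers of ovarian and Müllerian epithelium, 3 passed the filter: MUC1, with 641 reads in OV90CisR1 and 400 in OV90, EPCAM, with 140 in each line, and KRT8, with 48 in OV90CisR1 and 35 in OV90. All 20 markers summed to 272 to 354 in OV90CisR1 and 184 to 218 in OV90.

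Of 43424 gene symbols, 14233 had at least 1e-06 of the column total in 3 or more of the 9 libraries and were tested, and 2252 of them, 15.8%, passed limma's test at an adjusted p of 0.05. Rises in OV90CisR1 made up 1215 genes (8.54% of those tested) and falls 1037 (7.29%). A change of at least 2-fold was called for 1020 (7.17%), of which 588 were higher (4.13%) and 432 lower (3.04%). The median log2 fold change over all tested genes was -0.01. The values of OV90CisR1 and OV90 did not overlap in 4933 of the tested genes (34.7%). Some genes below were picked for lack of overlap, and it is to be read against that share. After replicate 3 was left out of both lines, 3901 genes passed (27.4%), 1971 up (13.8%) and 1930 down (13.6%). Without OV90 replicate 1 the count was 939, 578 up (4.06%) and 361 down (2.54%), without OV90 replicate 2 it was 1358, 829 up (5.82%) and 529 down (3.72%), and in a fit of the 2 lines alone it was 771. In the other fits that left out 1 library, 6.18% to 9.35% of all genes rose and 4.53% to 7.98% fell, and the counts of lists given for such a fit are to be read against its share. The named genes comprise 319 genes that passed, of which 167 also passed in each of the 9 fits that left out 1 library. Leaving out OV90 replicate 1 moved the count of rises by more than 1.5 times in 18 of the 24 lists with at least 5 rises, and the count of falls in 18 of the 19 lists with at least 5 falls. Without OV90 replicate 2 the numbers were 12 and 13, and without any other library at most 6 and 10, and each such count is given with its list. A gene below whose call ended when 1 library was left out has those libraries named in its paragraph, and the others held in all 9. In the fit of the 2 lines alone 164 of the 319 named genes passed, and genes that lost their call there are not marked below. In a bulk sample, fewer cells that make a transcript and less of it per cell cannot be told apart.

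Genes of the lysosome rose more often than genes at large. Of 75 tested genes of the lysosome and its vacuolar proton pump, 21 rose (28%) and 4 fell (5.33%), beside 8.54% and 7.29% of all tested genes. The list's median log2 fold change was 0.41, and between 17 and 23 members rose and 0 to 4 fell when any 1 of the 9 libraries was left out. With replicate 3 of both lines left out, 27 rose and 7 fell, and the median was smaller, at 0.25. The list's median, taken per library against each gene's OV90 mean, was 0.25, 0.49 and 0.42 in OV90CisR1 replicates 1 to 3, against 0.14, 0.13 and -0.26 in OV90 replicates 1 to 3. The lines did not overlap, and OV90 replicate 3 was the lowest.

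LAMP1, an abundant glycoprotein of the lysosomal membrane (chromosome 13, 113297239 to 113323672, in RefSeq on GRCh38.p14), had 5257, 4990 and 7182 normalized reads in OV90CisR1 replicates 1 to 3, against 2681, 2491 and 1693 in OV90 replicates 1 to 3. All OV90CisR1 values lay above all OV90 values, with a log2 difference of 1.35 (SE 0.19, limma adjusted p = 0.0016). NEU1, the lysosomal sialidase that removes sialic acid from glycans (chromosome 6, 31857659 to 31862821), had 1403, 1563 and 1655 in the OV90CisR1 libraries and 779.5, 745 and 290.5 in the OV90 libraries, with a log2 difference of 1.47 (SE 0.30, limma adjusted p = 0.01). CTSA, the carboxypeptidase cathepsin A, which binds and protects NEU1 in the lysosome (chromosome 20, 45891335 to 45898820), had 2153, 2592 and 3782 normalized reads in OV90CisR1 replicates 1 to 3, against 1174, 1077 and 897 in OV90 replicates 1 to 3. Its log2 fold change was 1.41 ± 0.19 (SE; limma adjusted p = 0.0015). Both were also higher in OV90CisR1 than in OV90CisR2 (mean 558 ± 34.02 for NEU1 and 994 ± 70.98 for CTSA; limma adjusted p = 0.013 and 0.0013). The call of NEU1 between the resistant lines ended without OV90CisR2 replicates 1 or 3 (0.055 to 0.064). TMEM175, a potassium and proton channel of the lysosome, had 128 ± 33.9 in OV90CisR1 and 48.1 ± 14.1 in OV90 (SD, n = 3 each), a log2 difference of 1.41 (limma adjusted p = 0.014), and its call ended without OV90 replicate 1 (0.055). SMPD1, acid sphingomyelinase, which splits sphingomyelin to ceramide in the lysosome (chromosome 11, 6390474 to 6394996), had 674, 818 and 919 in the OV90CisR1 libraries and 176, 176 and 247 in the OV90 libraries. The groups were far apart, with a log2 difference of 2.01 (SE 0.17, limma adjusted p = 9.8e-05), and OV90CisR2 averaged 502 ± 14.4.

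CTSA and SMPD1 are not among the 75 genes, since they were counted with the cathepsins and with sphingolipid metabolism. Further members of the lysosome list are named here after their values were seen. Enzymes that degrade glycans rose with NEU1: NAGLU by 1.35, GLA by 1.03, SGSH by 0.88, GAA by 0.84 and FUCA1 by 0.54 on the log2 scale. The call of GAA ended without OV90CisR1 replicates 2 or 3 or OV90CisR2 replicates 1 or 3 (limma adjusted p = 0.053 to 0.058), and that of FUCA1 without any library except OV90CisR1 replicate 3 (0.056 to 0.099). Among subunits of the proton pump, the 5 that rose were parts or partners of its membrane sector: ATP6AP1 (1.19), ATP6AP2 (0.58), ATP6V0A1 (1.10), ATP6V0B (0.62) and ATP6V0C (0.70). The pump subunits that fell, ATP6V1B2 and ATP6V1G1, belong to its cytosolic sector. ATP6V1B2 had 319 ± 120.3 in OV90CisR1 and 536 ± 33.6 in OV90 and ATP6V1G1 912 ± 33.4 in OV90CisR1 and 1356 ± 158 in OV90 (SD, n = 3 each). The call of ATP6V1G1 ended without OV90 replicate 1 (limma adjusted p = 0.057), and that of ATP6V1B2 without any OV90 or any OV90CisR2 library (0.067 to 0.12). IDS, iduronate sulfatase, fell, with 263 ± 83.2 in OV90CisR1 and 498 ± 52.02 in OV90, but not without OV90 replicates 1 or 2 (0.055 to 0.076). MITF, a transcription factor of the MiT family, fell by 0.53 on the log2 scale, but not without replicates 1 or 2 of OV90, OV90CisR1 replicate 2 or OV90CisR2 replicate 1 (0.051 to 0.11).

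**Figure D1:**
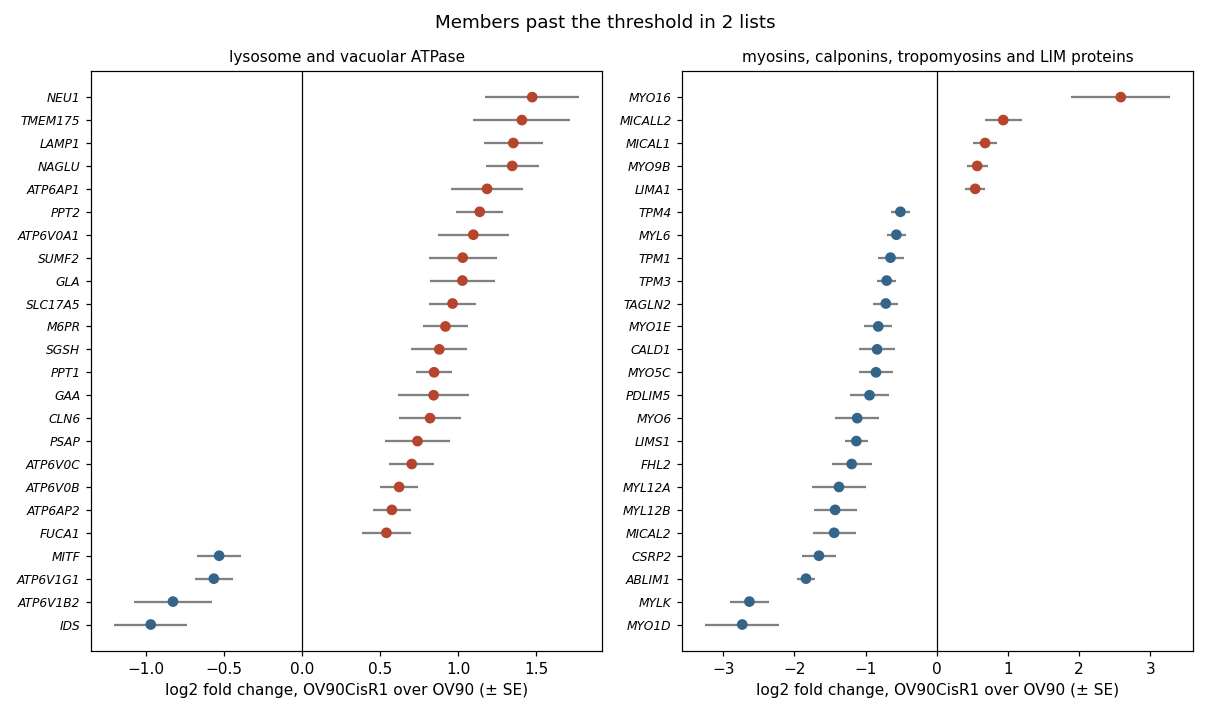
Log2 fold change of OV90CisR1 over OV90, with its standard error as a bar, for members past the threshold of the lysosome list (left panel, 20 of the 21 rises and all 4 falls) and of the list of myosins, calponins, tropomyosins and LIM proteins (right panel, 5 rises and 19 falls). Rises are red and falls are blue.

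The promoters of lysosomal genes are known for the E-box CACGTG, the core of the site bound by MiT factors. RefSeq promoter windows on GRCh38.p14, from 250 bases before to 50 bases after the start of the gene, were held for 17 of the 21 lysosomal genes that rose, for 54 of the 75 tested and for 11004 of all tested genes. CACGTG, which reads the same on both strands, was found in 4 of the 17 (23.5%), in 14 of the 54 (25.9%) and in 10.1% of all. The longer GTCACGTG, searched on both strands and overlapping the shorter motif wherever it occurs, was found in 3 of the 17 (17.6%), in 12 of the 54 (22.2%) and in 4.33% of all. The windows of the 4 genes that rose and hold CACGTG are given here on the strand of the gene, with each CACGTG in capitals. They lie at chr13:113296989-113297288 (plus strand) for LAMP1, chr17:80101331-80101630 (plus) for GAA, chr6:31862772-31863071 (minus) for NEU1 and chr1:43974710-43975009 (plus) for ATP6V0B.
LAMP1: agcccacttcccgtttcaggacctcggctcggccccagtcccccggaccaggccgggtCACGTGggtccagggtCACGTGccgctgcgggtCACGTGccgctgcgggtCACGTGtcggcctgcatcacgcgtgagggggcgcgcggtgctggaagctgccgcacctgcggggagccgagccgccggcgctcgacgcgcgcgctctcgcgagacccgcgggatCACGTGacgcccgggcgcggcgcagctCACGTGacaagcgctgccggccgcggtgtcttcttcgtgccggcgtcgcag
GAA: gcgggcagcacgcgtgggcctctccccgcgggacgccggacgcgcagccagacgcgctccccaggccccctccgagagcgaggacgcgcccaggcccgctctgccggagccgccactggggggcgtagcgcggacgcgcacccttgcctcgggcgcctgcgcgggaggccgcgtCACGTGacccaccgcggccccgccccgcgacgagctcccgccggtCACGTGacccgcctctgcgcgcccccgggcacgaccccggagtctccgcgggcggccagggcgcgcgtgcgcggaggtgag
NEU1: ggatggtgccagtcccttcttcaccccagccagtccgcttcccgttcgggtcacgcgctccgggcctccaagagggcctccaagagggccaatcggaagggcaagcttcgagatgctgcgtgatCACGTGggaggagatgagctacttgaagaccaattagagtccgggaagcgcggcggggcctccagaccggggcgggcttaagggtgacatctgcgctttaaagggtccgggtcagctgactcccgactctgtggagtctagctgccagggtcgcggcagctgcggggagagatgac
ATP6V0B: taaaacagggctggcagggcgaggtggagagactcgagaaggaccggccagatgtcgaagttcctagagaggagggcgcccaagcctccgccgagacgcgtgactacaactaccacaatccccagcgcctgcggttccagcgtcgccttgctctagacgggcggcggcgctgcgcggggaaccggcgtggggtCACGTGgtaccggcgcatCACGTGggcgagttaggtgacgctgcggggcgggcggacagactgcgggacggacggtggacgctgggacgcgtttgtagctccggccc
The window of LAMP1 holds the motif 6 times, those of GAA and ATP6V0B 2 times each, and that of NEU1 once. A match is a string of letters and was not tested for binding.

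GAA, acid alpha-glucosidase, which degrades glycogen in the lysosome, had 427, 482 and 604 normalized reads in OV90CisR1 replicates 1 to 3, against 359, 322 and 185 in OV90 replicates 1 to 3, and its limma adjusted p was 0.031, a call that ended without OV90CisR1 replicates 2 or 3 or OV90CisR2 replicates 1 or 3 (0.053 to 0.058). ATP6V0B, a proteolipid of the pump's membrane sector, had 763, 806 and 937 in the OV90CisR1 libraries and 533, 523 and 568 in the OV90 libraries, with no overlap (limma adjusted p = 0.0089).

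The lead genes outside this list encode potassium channels, secreted and surface proteins and a calcium-binding protein of the secretory pathway. They are shown by library in the plot of lead genes. KCNJ2, the inward rectifier channel Kir2.1, which holds the resting membrane voltage near the potassium equilibrium (chromosome 17, 70169532 to 70180044), had 525, 464 and 175 normalized reads in OV90CisR1 replicates 1 to 3, against 21.6, 11.7 and 6.30 in OV90 replicates 1 to 3. Every OV90CisR1 value was above every OV90 value although OV90CisR1 replicate 3 was the lowest of its group, with a log2 difference of 4.78 (SE 0.52, limma adjusted p = 0.00042). KCNJ4, a related inward rectifier (chromosome 22, 38426327 to 38455199), had 551, 432 and 736 in the OV90CisR1 libraries and 168, 126 and 93.5 in the OV90 libraries, with a log2 difference of 2.15 (SE 0.26, limma adjusted p = 0.00085). It was also higher than in OV90CisR2 (mean 119 ± 26.9; limma adjusted p = 0.00067). KCNK2, a leak potassium channel gated by stretch and lipids (chromosome 1, 215005542 to 215237090), had 29.96, 29.7 and 30.3 normalized reads in OV90CisR1 replicates 1 to 3, against 0 in all 3 OV90 libraries. It had 84 reads in OV90CisR1 and none in OV90, so it was at least 31.0-fold higher against a floor of 3 reads over the 3 OV90 libraries (limma adjusted p = 1.7e-05). OV90CisR2 had more, 116 ± 14.6 (limma adjusted p = 0.0039 against OV90CisR1).

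CLDN11, a tight junction claudin (chromosome 3, 170418868 to 170434691), had 10460, 9661 and 9579 in the OV90CisR1 libraries and 1803, 1796 and 3291 in the OV90 libraries. OV90 replicate 3 was the highest of its group and still well under OV90CisR1, with a log2 difference of 2.17 (SE 0.20, limma adjusted p = 0.00018). OV90CisR2 stayed near OV90, at 2005 ± 101 (limma adjusted p = 0.00015 against OV90CisR1). JAG1, a Notch ligand, had 365, 363 and 242 normalized reads in OV90CisR1 replicates 1 to 3, against 33.9, 34.1 and 13.5 in OV90 replicates 1 to 3, with a log2 difference of 3.61 (SE 0.32, limma adjusted p = 0.00015), and OV90CisR2 averaged 130 ± 12.8. SDF4, a calcium-binding protein of the Golgi lumen (chromosome 1, 1216931 to 1232001), had 3330, 2827 and 3296 in the OV90CisR1 libraries and 1198, 1224 and 1191 in the OV90 libraries, which were tight groups with a log2 difference of 1.38 (SE 0.12, limma adjusted p = 9.8e-05). SAT1, the enzyme that acetylates spermidine and spermine and so drives polyamine breakdown (chromosome X, 23783173 to 23786210), had 1093, 1070 and 982 normalized reads in OV90CisR1 replicates 1 to 3, against 312, 322 and 189.8 in OV90 replicates 1 to 3, with a log2 difference of 1.97 (SE 0.19, limma adjusted p = 0.00018). PLAC9, a small secreted protein, had 1107 ± 229 in OV90CisR1 and 270 ± 22.2 in OV90, PLPPR4, a membrane protein of neurons related to lipid phosphatases, 539.6 ± 164 in OV90CisR1 and 149.5 ± 57.1 in OV90, and ADGRE5, the adhesion receptor CD97, 1572 ± 238 in OV90CisR1 and 517 ± 35.4 in OV90 (SD, n = 3 each). Their log2 fold changes were 2.01, 1.87 and 1.59 (limma adjusted p = 9.8e-05, 0.0026 and 9.8e-05), and no library overlapped between the lines. COL11A1, a fibrillar collagen chain, had 81.6, 91.2 and 130.3 in the OV90CisR1 libraries and 12.3, 5.84 and 5.40 in the OV90 libraries, with a log2 difference of 3.58 (SE 0.30, limma adjusted p = 9.8e-05), and OV90CisR2 had 519 ± 63.6.

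NTS, the precursor of the peptide neurotensin (chromosome 12, 85874295 to 85882992), had 47.5, 99.7 and 30.3 normalized reads in OV90CisR1 replicates 1 to 3, against 0 in all 3 OV90 libraries. Its 167 reads in OV90CisR1 against none in OV90 make it at least 61.2-fold higher (limma adjusted p = 4.8e-05), and OV90CisR2 averaged 98.1 ± 19.3. Genes that an earlier description of these data had named were set aside for the next count. Of the remaining tested genes, 5 had at least 10 reads in each OV90CisR1 library and 0 in each OV90 library. None of these remaining genes showed the reverse. The others beside NTS and KCNK2 were MEF2C, a transcription factor of muscle and neurons, ZNF544, a zinc finger gene, and ASB9P1, a pseudogene. MEF2C was at least 15.2-fold, ZNF544 at least 15.9-fold and ASB9P1 at least 17.3-fold higher (limma adjusted p = 0.00015, 0.0023 and 0.0017). The 5 genes were picked by these same reads, so their p-values against OV90 are no further support. In OV90CisR2 MEF2C averaged 92.99 ± 16.7, whereas ZNF544 and ASB9P1 were at 0 in its 3 libraries. All 3 genes differed between the resistant lines (0.0019, 0.0028 and 0.0019). ZNF544 and ASB9P1 passed the filter only through the OV90CisR1 libraries, where they are high, so for them this p-value is no further support either. Among abundant hormone genes, PRL, which encodes prolactin, had 2693 ± 98.5 in OV90CisR1 and 716 ± 159.6 in OV90, and GCG, which encodes proglucagon, 13740 ± 7279 in OV90CisR1 and 4155 ± 1797 in OV90 (SD, n = 3 each). PRL did not overlap between the lines (log2 fold change 1.93, limma adjusted p = 7.6e-05), whereas GCG in OV90CisR1 replicate 3, at 5335, lay below OV90 replicate 3, at 6179, and its call ended without replicates 1 or 2 of OV90 or replicates 1 or 2 of OV90CisR1 (0.075 to 0.089).

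**Figure D2:**
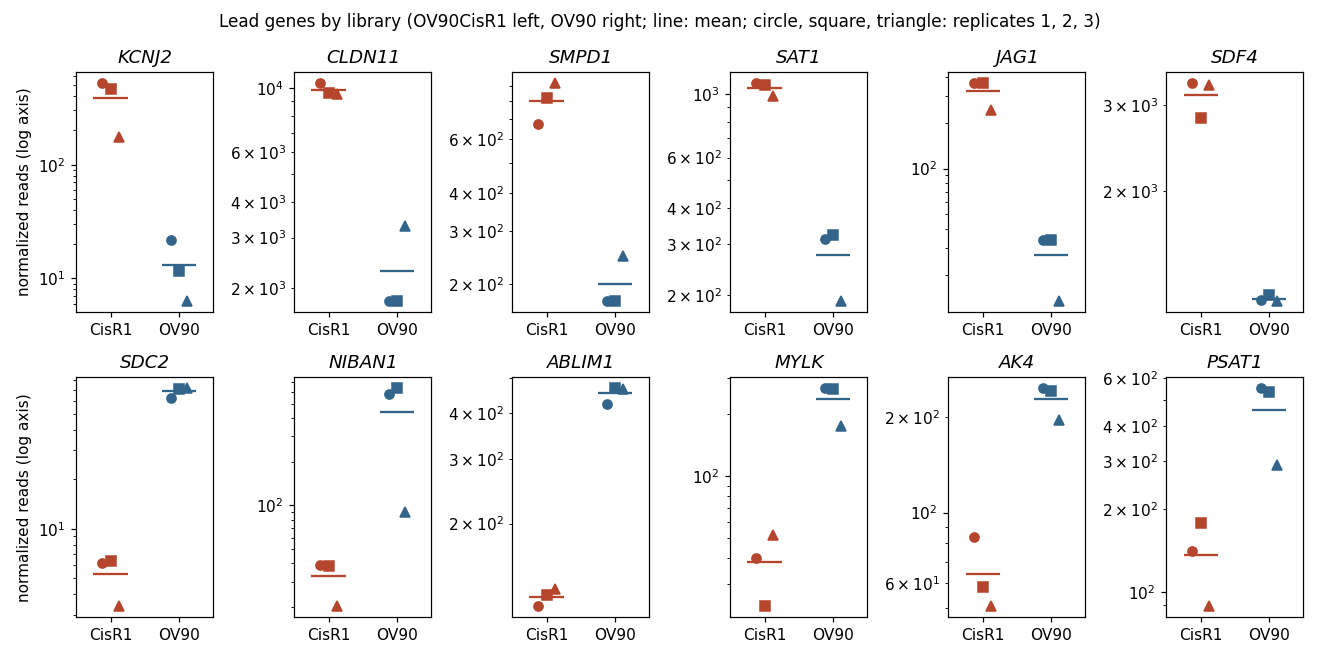
Normalized reads on a log axis, whose range differs between panels, for 12 lead genes in the 3 OV90CisR1 libraries (left, red) and the 3 OV90 libraries (right, blue), with the mean as a line and replicates 1, 2 and 3 as circle, square and triangle. The 6 genes of the upper row are higher and the 6 of the lower row lower in every OV90CisR1 library than in any OV90 library. Lack of overlap was a criterion for picking some genes and was seen in 4933 of all 14233 tested genes (34.7%).

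Among the lead falls was SDC2, a heparan sulfate proteoglycan of the cell surface, which had 6.20, 6.36 and 3.37 normalized reads in OV90CisR1 replicates 1 to 3, against 62.7, 71.05 and 71.96 in OV90 replicates 1 to 3. The lines were far apart, with a log2 difference of -3.50 (SE 0.28, limma adjusted p = 7.6e-05), and OV90CisR2 stayed at 89.4 ± 9.44 (limma adjusted p = 4e-05 against OV90CisR1). NIBAN1, a stress-induced regulator of translation (chromosome 1, 184791032 to 184974508), had 39.2, 38.2 and 20.2 in the OV90CisR1 libraries and 587, 640.5 and 89.9 in the OV90 libraries. OV90 replicate 3 was far below the other OV90 libraries but above all of OV90CisR1, with a log2 difference of -3.33 (SE 0.60, limma adjusted p = 0.006). MYLK, the kinase that phosphorylates myosin light chain and so starts contraction (chromosome 3, 123610049 to 123884332), had 40.3, 23.3 and 51.7 normalized reads in OV90CisR1 replicates 1 to 3, against 268, 265 and 175 in OV90 replicates 1 to 3, with a log2 difference of -2.63 (SE 0.28, limma adjusted p = 0.00035). HUNK, a kinase of the AMPK-related family, had 14.5, 18.03 and 17.98 in the OV90CisR1 libraries and 115, 91.5 and 122 in the OV90 libraries, with a log2 difference of -2.63 (SE 0.21, limma adjusted p = 9.1e-05). PCGF5, a subunit of a Polycomb repressive complex, had 14.5, 2.12 and 15.7 normalized reads in OV90CisR1 replicates 1 to 3, against 120.3, 162 and 102 in OV90 replicates 1 to 3, with a log2 difference of -3.77 (SE 0.53, limma adjusted p = 0.0017). CCN2, a secreted matricellular protein, had 190.1, 164 and 124 in the OV90CisR1 libraries and 542, 498 and 547 in the OV90 libraries. OV90CisR2 moved apart from OV90CisR1 in CCN2, with 689 ± 93.04 (limma adjusted p = 0.00011). RAI14, an actin-binding protein, averaged 243 ± 25.4 in OV90CisR1 and 702 ± 76.9 in OV90, MORC4, a nuclear ATPase, 101 ± 2.78 in OV90CisR1 and 302 ± 30.5 in OV90, and SPATS2L 17.1 ± 3.19 in OV90CisR1 and 89.98 ± 8.92 in OV90 (SD, n = 3 each), with log2 fold changes of -1.53, -1.57 and -2.35. TMSB15A and TMSB10 encode thymosins, which bind actin monomers: TMSB15A had 33.3 ± 4.40 in OV90CisR1 and 146 ± 5.95 in OV90, and TMSB10 5719 ± 1507 in OV90CisR1 and 10890 ± 724 in OV90, with limma adjusted p = 0.00011 and 0.0067. The log2 fold change was -2.16 for FRMD4B, -1.81 for FEZ1, a kinesin adaptor of neurons, -1.79 for CYB5A, a cytochrome b5, and -1.73 for CLGN, an endoplasmic reticulum chaperone. SNX10, a sorting nexin of endosomes, fell by 1.71, but not without OV90 replicates 1 or 2 (0.061 to 0.068), and FAM241B had a log2 fold change of -1.87, not called without any OV90CisR2 library or OV90 replicates 1 or 2 (0.054 to 0.13).

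Genes of the contractile cytoskeleton had the largest share of falls of the lists in the fit of all 9 libraries and in 6 of the 9 fits that left out 1 library. Of 68 tested myosins, calponins, tropomyosins and LIM proteins, 19 fell (27.9%) and 5 rose (7.35%), beside 7.29% and 8.54% of all genes, with a median of -0.19. Falls numbered 10 without OV90 replicate 1 and 12 without OV90CisR1 replicate 1 or OV90CisR2 replicates 1 or 3. Rises numbered 1 without OV90CisR1 replicate 1, 2 without OV90CisR1 replicate 2 or OV90CisR2 replicate 3 or OV90 replicates 1 or 2 and 3 without OV90CisR1 replicate 3. Without replicate 3 of both lines, 23 fell (33.8%) and 7 rose. The share was larger among RAB GTPases without replicate 3 of both lines (20 of 49, 40.8%), without OV90CisR1 replicate 1 (10 of 49) and, by a margin under 1 gene, without OV90 replicate 3 (13 of 49), and among tetraspanins without OV90 replicate 1 (3 of 19). Per library the median was -0.15, -0.27 and -0.25 in OV90CisR1 and -0.03, -0.06 and 0.08 in OV90. Besides MYLK, ABLIM1, a LIM protein that binds actin (chromosome 10, 114431110 to 114801373), had 119, 127 and 133 normalized reads in OV90CisR1 replicates 1 to 3, against 425, 469 and 468 in OV90 replicates 1 to 3, with a log2 difference of -1.84 (SE 0.13, limma adjusted p = 4.7e-05). CSRP2, a LIM protein of smooth muscle, had 70.2, 93.3 and 61.8 in the OV90CisR1 libraries and 226, 229 and 252 in the OV90 libraries, with a log2 difference of -1.66 (SE 0.24, limma adjusted p = 0.0019). MYO1D, a myosin of membranes, had 5.17, 8.48 and 7.87 normalized reads in OV90CisR1 replicates 1 to 3, against 95.6, 74.95 and 19.8 in OV90 replicates 1 to 3, a wide OV90 group whose lowest value was still above OV90CisR1 (log2 fold change -2.73, limma adjusted p = 0.0073). MYL12A and MYL12B are neighbours on chromosome 18 and near-identical copies that encode regulatory light chains of myosin, so their reads may be split between them. MYL12A had 2623, 2361 and 764 in the OV90CisR1 libraries and 5159, 4528 and 3536 in the OV90 libraries, and MYL12B had 3400, 3150 and 1389 normalized reads in OV90CisR1 replicates 1 to 3, against 6604, 5565 and 7914 in OV90 replicates 1 to 3. OV90CisR1 replicate 3 was the lowest for both, and the MYL12A call ended without replicates 1 or 2 of OV90 or replicates 1 or 3 of OV90CisR2 (0.052 to 0.11). Rises were seen in MYO16, MICALL2 and MICAL1. MYO16, with 19.7 ± 3.72 in OV90CisR1 and 3.95 ± 4.44 in OV90, lost its call without any OV90CisR1 library or without OV90 replicate 1 (0.052 to 0.07), MICAL1 without OV90CisR1 replicate 2 (0.058), and MICALL2 without any library except OV90CisR1 replicate 2 and OV90 replicate 3 (0.052 to 0.1).

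Falls were also the more frequent calls among genes of microtubules, small GTPases and G protein regulators. Of 70 tubulins and microtubule-binding proteins, 12 fell (17.1%) and 4 rose. Falls numbered 3 without OV90 replicate 1, 4 without OV90CisR1 replicate 1 or OV90CisR2 replicate 3, 5 without OV90CisR2 replicate 1, 6 without OV90CisR1 replicate 2 or OV90CisR2 replicate 2 and 7 without OV90 replicate 2. Without OV90CisR1 replicate 1, 3 of the 70 rose beside the 4 falls, when 6.07% of all genes fell, so the share of falls was then no larger than that of all genes. With replicate 3 of both lines left out, 18 fell. CAMSAP3, which anchors minus ends of microtubules, had 6.10 ± 1.81 in OV90CisR1 and 24.2 ± 6.10 in OV90, whereas STMN3, which destabilizes microtubules in neurons, had 248 ± 31.98 in OV90CisR1 and 109 ± 15.1 in OV90 and MAP1A, which binds along them, 141 ± 14.8 in OV90CisR1 and 62.4 ± 13.7 in OV90 (SD, n = 3 each). Log2 fold changes were -1.83, 1.18 and 1.18 (limma adjusted p = 0.0091, 0.0026 and 0.0043). Of 49 RAB GTPases, which direct membrane vesicles, 9 fell (18.4%) and 1 rose, with a median of -0.45. Falls numbered 3 without OV90 replicate 1. After replicate 3 was left out of both lines, 20 fell. RAB3B, of secretory vesicles, had 142, 159 and 138 normalized reads in OV90CisR1 replicates 1 to 3, against 308, 261 and 241 in OV90 replicates 1 to 3, with no overlap (log2 fold change -0.88, limma adjusted p = 0.0054). RAB6B and RAB1A, of the Golgi, had log2 fold changes of -1.13 and -0.78, but RAB6B was not called without OV90 replicates 1 or 2 (0.052 to 0.064) nor RAB1A without OV90 replicate 1 (0.059). RND3, an atypical small GTPase, had 9.30, 10.6 and 7.87 in the OV90CisR1 libraries and 31.9, 30.2 and 87.2 in the OV90 libraries, with a log2 difference of -2.14 (SE 0.44, limma adjusted p = 0.01), and FGD4, an exchange factor for CDC42, fell to 1.80 ± 0.668 in OV90CisR1, against 12.6 ± 1.57 in OV90 (SD, n = 3 each). ARHGAP24, an activating protein for Rac, had 14.5, 18.03 and 19.1 normalized reads in OV90CisR1 replicates 1 to 3, against 3.08, 1.95 and 0 in OV90 replicates 1 to 3, with a log2 difference of 2.98 (SE 0.49, limma adjusted p = 0.0039). Of 33 regulators of G protein signalling, 6 fell (18.2%) and none rose. RGS16, which shuts off G protein alpha subunits, had 32.02, 31.8 and 22.5 in the OV90CisR1 libraries and 91.5, 82.7 and 101 in the OV90 libraries, with a log2 difference of -1.65 (SE 0.23, limma adjusted p = 0.0015). GNG2, a gamma subunit, had 0 reads in OV90CisR1 and 30 in OV90, at least 8.94-fold lower (limma adjusted p = 0.0062).

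**Figure D3:**
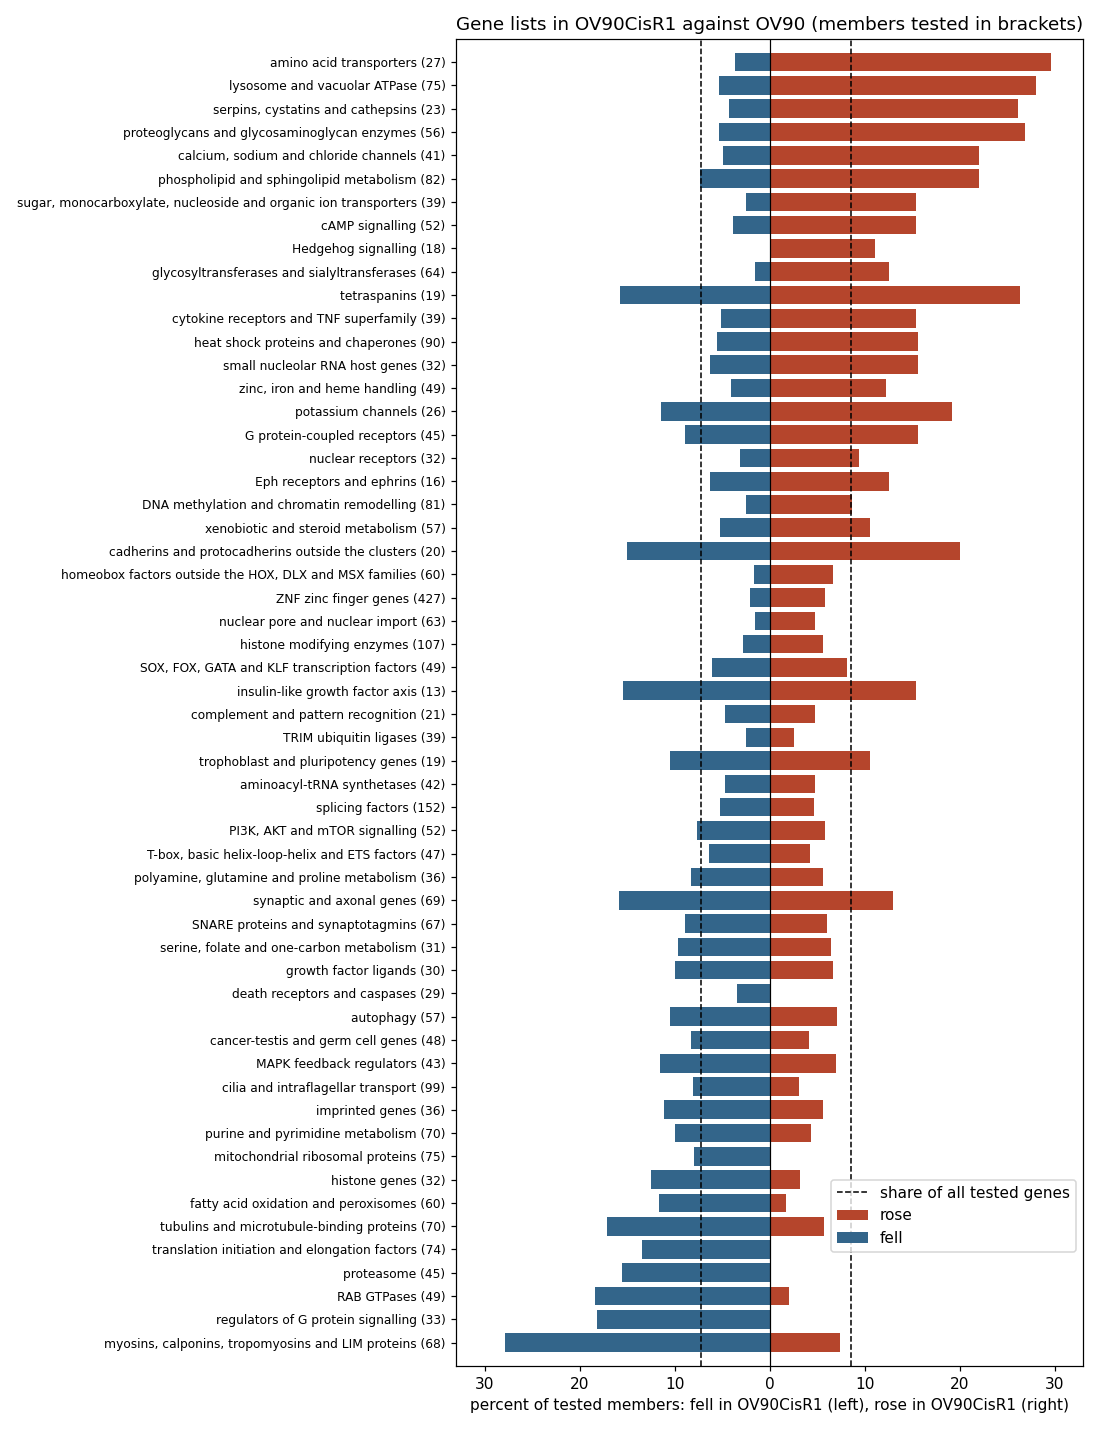
Percent of the tested members of each of 56 gene lists that fell (blue, to the left) or rose (red, to the right) in OV90CisR1 against OV90 at a limma adjusted p of 0.05, with the number of tested members in brackets. Dashed lines mark the shares of all 14233 tested genes, 7.29% down and 8.54% up. Amino acid transporters and lysosomal genes lie at the top and contractile genes at the bottom.

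In both ion channel lists the share of rises was above that of all genes, 8.54%. Among potassium channels the share of falls was also above that of all genes, 7.29%. The rises include KCNK2 and KCNJ8, with 0 reads in OV90, and SCN2A and SCN3A, with 3 and 1. Of 26 tested members of the potassium channel list, which does not hold KCNJ4, 5 rose (19.2%) and 3 fell (11.5%), with a median of 0.51, and of 41 calcium, sodium and chloride channels, 9 rose (22%) and 2 fell (4.88%), with a median of 0.37. Without replicate 3 of both lines the 2 medians were 0.49 and 0.26. Potassium channel rises numbered 3 without OV90CisR2 replicate 2 or OV90 replicates 1 or 2. Per library, the second list's median was 0.37, 0.41 and 0.49 in OV90CisR1 and 0.06, 0.14 and -0.18 in OV90. KCNJ8, the pore of a potassium channel closed by ATP, had 14 reads in OV90CisR1 and none in OV90, at least 5.15-fold higher (limma adjusted p = 0.0029), and OV90CisR2 averaged 68.5 ± 11.2. Among the potassium channel subunits that fell were KCNMA1 and KCNMB4, which together form calcium-activated channels of large conductance. KCNMB4 had 13.4, 13.8 and 12.4 normalized reads in OV90CisR1 replicates 1 to 3, against 37.02, 57.4 and 27.9 in OV90 replicates 1 to 3, with a log2 difference of -1.50 (SE 0.31, limma adjusted p = 0.011). KCNMA1, at 12.1 ± 5.60 in OV90CisR1 and 31.1 ± 9.65 in OV90, did not hold without replicates 1 or 2 of OV90, OV90CisR1 replicate 2 or any OV90CisR2 library (0.06 to 0.12). PIEZO2, a cation channel opened by mechanical force (chromosome 18, 10670247 to 11149569), had 126, 143 and 158 in the OV90CisR1 libraries and 13.4, 27.2 and 4.50 in the OV90 libraries, with a log2 difference of 3.45 (SE 0.47, limma adjusted p = 0.0014). SCN3A, a voltage-gated sodium channel, had 35 reads in OV90CisR1 and 1 in OV90, a ratio of 38.9 with a 95% exact counting interval of 6.54 to 1580. CACNG4, an auxiliary subunit of calcium channels and glutamate receptors, had 20.7, 24.4 and 14.6 normalized reads in OV90CisR1 replicates 1 to 3, against 92.5, 91.5 and 62.1 in OV90 replicates 1 to 3, with a log2 difference of -2.00 (SE 0.28, limma adjusted p = 0.0017).

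Of 27 amino acid transporters, 8 rose (29.6%) and 1 fell, with a median of 0.32 (0.27 without replicate 3 of both lines). Rises numbered 3 without OV90 replicate 1 and 5 without OV90CisR1 replicates 1 or 2 or OV90 replicate 2. SLC38A2, a sodium-coupled carrier of neutral amino acids (chromosome 12, 46358188 to 46372773), had 4841, 5498 and 6742 normalized reads in OV90CisR1 replicates 1 to 3, against 2538, 2427 and 2879 in OV90 replicates 1 to 3, with a log2 difference of 1.11 (SE 0.14, limma adjusted p = 0.0011). OV90CisR2 averaged 2280 ± 106 (limma adjusted p = 0.0005 against OV90CisR1). SLC6A17, a vesicular carrier of neutral amino acids, averaged 128 ± 11.6 in OV90CisR1 and 57.3 ± 23.98 in OV90 (SD, n = 3 each; log2 fold change 1.23, limma adjusted p = 0.017). Of 39 carriers of sugars, monocarboxylates, nucleosides and organic ions, 6 rose (15.4%) and 1 fell. Rises numbered 3 without OV90 replicate 1. SLC5A3, which imports myo-inositol, had 1320, 1404 and 1903 in the OV90CisR1 libraries and 774, 714 and 733 in the OV90 libraries, and SLC5A6, which imports biotin and pantothenate, had 973, 876 and 1306 normalized reads in OV90CisR1 replicates 1 to 3, against 435, 454 and 668 in OV90 replicates 1 to 3. Neither overlapped between the lines (log2 fold changes 1.04 and 1.02; limma adjusted p = 0.0017 and 0.0067). SLC20A2, a phosphate carrier, had 748, 749.8 and 282 in the OV90CisR1 libraries and 203, 152 and 115 in the OV90 libraries, with a log2 difference of 1.82 (SE 0.36, limma adjusted p = 0.0085). Of 49 genes of zinc, iron and heme handling, 6 rose (12.2%) and 2 fell. SLC39A10, a zinc importer (chromosome 2, 195613029 to 195737700), had 436, 399 and 415 normalized reads in OV90CisR1 replicates 1 to 3, against 111, 118 and 156 in OV90 replicates 1 to 3, with a log2 difference of 1.71 (SE 0.18, limma adjusted p = 0.00035), and SLC39A3, another zinc importer, 346 ± 70.02 in OV90CisR1 and 179.8 ± 20.8 in OV90. SLC25A37, which brings iron into mitochondria, had 876 ± 157 in OV90CisR1 and 506 ± 27.98 in OV90. SLC40A1, ferroportin, the exporter of iron from cells, had 27.9, 31.8 and 10.1 in the OV90CisR1 libraries and 138, 77.9 and 81.8 in the OV90 libraries, with a log2 difference of -2.14 (SE 0.40, limma adjusted p = 0.0068). Both zinc importers were also higher than in OV90CisR2 (means 152 ± 22.4 and 153 ± 11.8; limma adjusted p = 0.00097 and 0.0031).

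Of 82 genes of phospholipid and sphingolipid metabolism, 18 rose (22%) and 6 fell (7.32%), with a median of 0.35. Rises numbered 6 without OV90 replicate 1 and 9 without OV90 replicate 2. Falls numbered 1 without OV90 replicate 1, 2 without OV90CisR1 replicate 2 or OV90CisR2 replicates 1 or 3 or OV90 replicate 2 and 3 without OV90CisR1 replicate 1. After replicate 3 was left out of both lines, 21 rose and 15 fell, and the median was smaller, at 0.16. Per library the median was 0.20, 0.25 and 0.39 in OV90CisR1 and 0.10, 0.01 and -0.08 in OV90. Besides SMPD1, PLA2G4A, the cytosolic phospholipase that frees arachidonic acid, had 33 reads in OV90CisR1 and none in OV90, at least 12.2-fold higher (limma adjusted p = 0.00091). LPCAT1, which adds an acyl chain to lysophosphatidylcholine, had 134.3, 104 and 158 normalized reads in OV90CisR1 replicates 1 to 3, against 41.1, 37.96 and 56.7 in OV90 replicates 1 to 3, with a log2 difference of 1.53 (SE 0.28, limma adjusted p = 0.0069). PLCB4, a phospholipase C downstream of G proteins (chromosome 20, 9068678 to 9480808), had 17.6, 16.97 and 12.4 in the OV90CisR1 libraries and 93.6, 113 and 238 in the OV90 libraries, with a log2 difference of -3.06 (SE 0.33, limma adjusted p = 0.00042). SGMS2, which makes sphingomyelin, had 29.6 ± 14.9 in OV90CisR1 and 69.2 ± 9.50 in OV90, but its call ended without replicates 1 or 2 of OV90, OV90CisR1 replicate 2 or OV90CisR2 replicate 3 (0.053 to 0.1). Of 60 genes of fatty acid oxidation and peroxisomes, 7 fell (11.7%) and 1 rose. Falls numbered 2 without OV90 replicate 1 and 4 without OV90CisR1 replicate 3 or OV90CisR2 replicates 1 or 3. CROT, a peroxisomal acyltransferase, had 44.8 ± 5.65 in OV90CisR1 and 92.1 ± 5.86 in OV90, and PHYH, which starts breakdown of phytanic acid, 115 ± 22.3 in OV90CisR1 and 230.3 ± 32.3 in OV90 (SD, n = 3 each; limma adjusted p = 0.0071 and 0.0099).

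Of 56 proteoglycans and glycosaminoglycan enzymes, 15 rose (26.8%) and 3 fell (5.36%), with a median of 0.28. Rises numbered 10 to 17 when 1 library was left out, and 21 rose and 9 fell without replicate 3 of both lines. HSPG2, perlecan, a basement membrane proteoglycan (chromosome 1, 21822244 to 21937310), had 222, 116 and 212 normalized reads in OV90CisR1 replicates 1 to 3, against 53.5, 65.2 and 38.7 in OV90 replicates 1 to 3, with a log2 difference of 1.76 (SE 0.28, limma adjusted p = 0.0029). CHPF, which extends chondroitin chains (chromosome 2, 219538954 to 219543809), had 444, 423 and 667 in the OV90CisR1 libraries and 171, 166 and 191 in the OV90 libraries, with a log2 difference of 1.51 (SE 0.19, limma adjusted p = 0.001). CHST10, a sulfotransferase of cell surface glycans, averaged 194 ± 41.95 in OV90CisR1 and 86.8 ± 15.9 in OV90 (SD, n = 3 each; log2 fold change 1.15, limma adjusted p = 0.007). CHST13, which sulfates chondroitin, fell to 40.5 ± 17.7 in OV90CisR1, against 94.2 ± 8.55 in OV90, but not without OV90CisR1 replicate 1 or OV90 replicate 2 (0.051 to 0.053). UST, which sulfates uronic acids of chondroitin and dermatan, had 4.13, 7.42 and 3.37 normalized reads in OV90CisR1 replicates 1 to 3, against 42.2, 43.8 and 6.30 in OV90 replicates 1 to 3. OV90 replicate 3 lay below OV90CisR1 replicate 2, and the call ended without any library except OV90 replicate 3 (0.053 to 0.16). The fall of SDC2 thus ran against most called members of the list. Of 64 glycosyltransferases and sialyltransferases, 8 rose (12.5%) and 1, FUT9, fell, a call that ended without OV90 replicate 1 (0.051). Rises numbered 5 without OV90 replicates 1 or 2.

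Of 19 tetraspanins, membrane proteins that gather other proteins in microdomains, 5 rose (26.3%) and 3 fell (15.8%). TSPAN5, which guides a surface protease, had 11.4, 10.6 and 32.6 normalized reads in OV90CisR1 replicates 1 to 3, against 169, 183 and 85.5 in OV90 replicates 1 to 3, with a log2 difference of -3.04 (SE 0.41, limma adjusted p = 0.0013). TSPAN18 had 6.20, 10.6 and 11.2 in the OV90CisR1 libraries and 50.4, 50.6 and 55.8 in the OV90 libraries, with a log2 difference of -2.40 (SE 0.32, limma adjusted p = 0.0013), and TSPAN13 4.96 ± 3.20 in OV90CisR1 and 18.8 ± 4.82 in OV90 (SD, n = 3 each). CD81, a tetraspanin of the plasma membrane, had 3094, 2813 and 4458 normalized reads in OV90CisR1 replicates 1 to 3, against 1918, 1890 and 1692 in OV90 replicates 1 to 3, with a log2 difference of 0.89 (SE 0.17, limma adjusted p = 0.008). CD63, a tetraspanin of lysosomes and exosomes, had 7906, 9758 and 10380 in the OV90CisR1 libraries and 6994, 6653 and 4682 in the OV90 libraries, but its call ended without OV90CisR1 replicates 2 or 3 or OV90CisR2 replicates 1 or 3 (0.053 to 0.076). Tetraspanin rises numbered 2 without OV90CisR1 replicate 2 or OV90CisR2 replicates 1 or 3 or OV90 replicate 2 and 3 without OV90CisR1 replicate 3 or OV90 replicate 1. Of 20 cadherins, protocadherins and catenins, 4 rose and 3 fell, with a median of 0.55 (0.39 without replicate 3 of both lines). PCDH17, a protocadherin (chromosome 13, 57630108 to 57729311), had 1034, 970.4 and 1054 normalized reads in OV90CisR1 replicates 1 to 3, against 362, 432 and 242 in OV90 replicates 1 to 3, with a log2 difference of 1.60 (SE 0.18, limma adjusted p = 0.00065). CDH12, a brain cadherin, had 78 reads in OV90CisR1 and 1 in OV90, a ratio of 86.7 (95% exact counting interval 15.1 to 3470). OV90CisR2 averaged 0.634 ± 0.554, so that OV90CisR1 was higher than OV90CisR2 (limma adjusted p = 0.0019). CDH12 passed the filter only through the OV90CisR1 libraries, so this p-value is no further support. Without OV90 replicate 1 the list had 2 rises, and without OV90 replicates 1 or 2 it had no falls.

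Of 90 heat shock proteins and chaperones, 14 rose (15.6%) and 5 fell (5.56%), with a median of -0.07. Without replicate 3 of both lines 26 rose, and the median was 0.08. Rises numbered 8 without OV90 replicate 1. Falls numbered 2 without OV90CisR1 replicate 1 or OV90 replicates 1 or 2. The 3 largest rises of the list were P3H3 and P3H1, which hydroxylate prolines of collagen, and FKBP10, a collagen chaperone. P3H1 (chromosome 1, 42746374 to 42767028) had 390.5, 322 and 476 normalized reads in OV90CisR1 replicates 1 to 3, against 160.4, 164 and 201 in OV90 replicates 1 to 3, with a log2 difference of 1.17 (SE 0.17, limma adjusted p = 0.0021). P3H3 had 328, 262 and 473 in the OV90CisR1 libraries and 128, 113 and 153 in the OV90 libraries, with a log2 difference of 1.39 (SE 0.22, limma adjusted p = 0.003). FKBP10 had 981 ± 289.9 in OV90CisR1 and 444 ± 46.5 in OV90, a call that ended without OV90CisR1 replicate 1 or OV90 replicate 1 (0.052 to 0.055). SERPINH1, a chaperone of procollagen, had 3116, 2843 and 2908 normalized reads in OV90CisR1 replicates 1 to 3, against 1197, 1155 and 2272 in OV90 replicates 1 to 3, and its call ended without OV90 replicate 1 (0.056). COL3A1, a fibrillar collagen and the main part of the fibroblast marker sum, had 10330, 10530 and 5470 in the OV90CisR1 libraries and 3071, 2804 and 3541 in the OV90 libraries, with a log2 difference of 1.43 (SE 0.25, limma adjusted p = 0.0053). The 10 fibroblast markers summed to 7542 to 12390 in OV90CisR1 and 4089 to 5432 in OV90, and all 10 were above 0 in both lines. By group means, COL1A1 (87.1 in OV90CisR1 and 116 in OV90) and PDGFRB (89.2 and 99.0) were lower in OV90CisR1. The remaining markers were higher, among them THY1 (1310 and 1075). The part of fibroblast-like cells in these results was not tested. Of 23 serpins, cystatins and cathepsins, 6 rose (26.1%) and 1 fell. Rises numbered 3 without OV90CisR1 replicates 1 or 2. SERPINB6, an intracellular protease inhibitor, had 385 ± 66.8 in OV90CisR1 and 181 ± 19.03 in OV90 (SD, n = 3 each; log2 fold change 1.07, limma adjusted p = 0.0035).

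**Figure D4:**
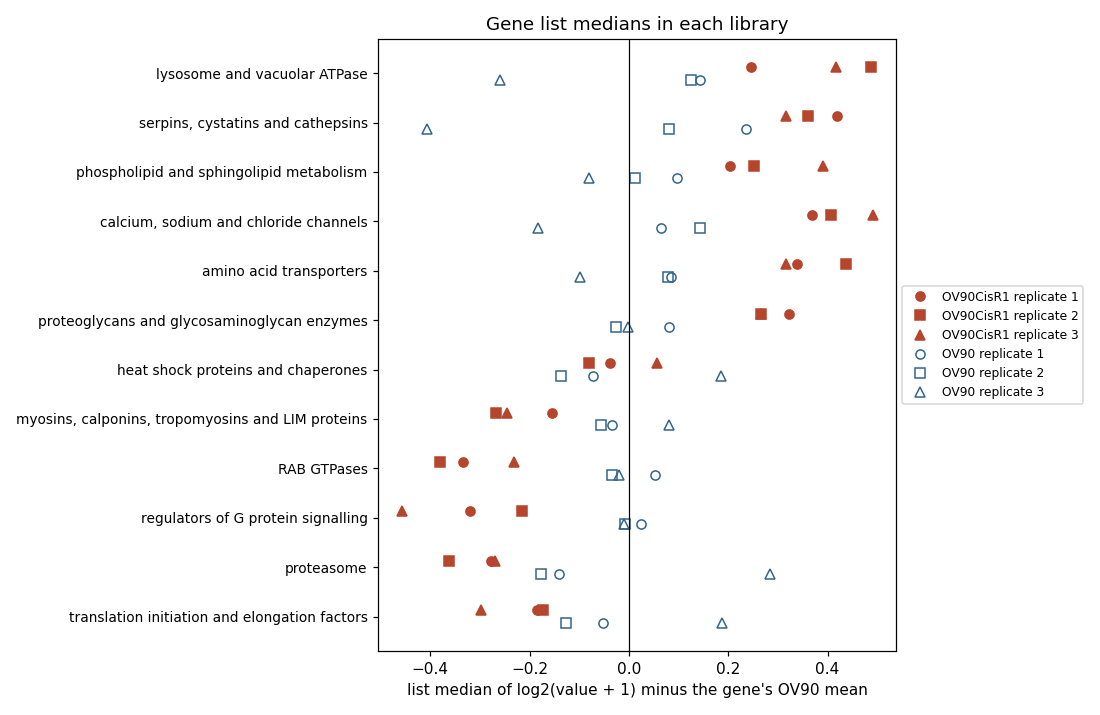
Median over the tested members of 12 gene lists of log2(value + 1) minus the gene's OV90 mean, in OV90CisR1 libraries (filled, red) and OV90 libraries (open, blue), with replicates 1, 2 and 3 as circle, square and triangle. In the lysosome list the libraries sit at 0.25, 0.49 and 0.42 in OV90CisR1 and 0.14, 0.13 and -0.26 in OV90, and OV90 replicate 3 is the farthest from the other OV90 libraries also in the proteasome, translation factor and chaperone lists.

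Of 45 G protein-coupled receptors, 7 rose (15.6%) and 4 fell (8.89%). Rises numbered 4 without OV90 replicate 1. ADGRG6, an adhesion receptor of Schwann cells, had 42.4, 51.97 and 37.1 normalized reads in OV90CisR1 replicates 1 to 3, against 7.20, 6.81 and 17.1 in OV90 replicates 1 to 3, with a log2 difference of 2.08 (SE 0.33, limma adjusted p = 0.0029). HRH1, the histamine H1 receptor, had 6.20, 8.48 and 7.87 in the OV90CisR1 libraries and 29.8, 32.1 and 38.7 in the OV90 libraries, with a log2 difference of -2.02 (SE 0.30, limma adjusted p = 0.0022). F2R, the thrombin receptor, had 31.6 ± 5.70 in OV90CisR1 and 73.1 ± 18.3 in OV90 and S1PR3, a sphingosine-phosphate receptor, 31.8 ± 11.7 in OV90CisR1 and 75.2 ± 12.2 in OV90. The call of F2R ended without OV90 replicates 1 or 2 (0.055 to 0.056) and that of S1PR3 without OV90 replicate 1 (0.062). Of 52 genes of cAMP signalling, 8 rose (15.4%) and 2 fell (3.85%). Rises of the cAMP list numbered 5 without OV90CisR1 replicates 1 or 2 or OV90CisR2 replicate 2 or OV90 replicate 1. With replicate 3 of both lines left out, 13 rose and 6 fell. PDE3A, which degrades cAMP, had 15.5, 26.5 and 12.4 normalized reads in OV90CisR1 replicates 1 to 3, against 6.17, 1.95 and 2.70 in OV90 replicates 1 to 3, with a log2 difference of 2.09 (SE 0.42, limma adjusted p = 0.0096). PRKAR2B, a regulatory subunit of protein kinase A, had 14.5, 23.3 and 30.3 in the OV90CisR1 libraries and 114, 103 and 49.5 in the OV90 libraries, with a log2 difference of -1.89 (SE 0.35, limma adjusted p = 0.0068). Of 39 cytokine receptors and members of the TNF superfamily, 6 rose (15.4%) and 2 fell, and IL11RA, the receptor of interleukin 11, had 275 ± 96.01 in OV90CisR1 and 122 ± 36.1 in OV90 (log2 fold change 1.15, limma adjusted p = 0.016). Cytokine receptor rises numbered 2 without OV90 replicate 1 and 3 without OV90CisR1 replicate 1 or OV90 replicate 2. Of 16 Eph receptors and ephrins, 2 rose and 1 fell, and EFNA5, an ephrin ligand, had 1077, 1134 and 979 normalized reads in OV90CisR1 replicates 1 to 3, against 639, 736 and 618 in OV90 replicates 1 to 3, with a log2 difference of 0.68 (SE 0.12, limma adjusted p = 0.0057).

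Inside the cell, of 43 feedback regulators of MAP kinases, 3 rose and 5 fell. Falls numbered 2 without OV90CisR2 replicates 1 or 3 and 3 without OV90 replicates 1 or 2. SPRY2 and SPRY4 encode Sprouty inhibitors of receptor tyrosine kinase signals: SPRY2 had 17.6, 15.9 and 17.98 normalized reads in OV90CisR1 replicates 1 to 3, against 4.11, 1.95 and 0.899 in OV90 replicates 1 to 3, and SPRY4 had 142, 114 and 97.8 in the OV90CisR1 libraries and 53.5, 21.4 and 59.4 in the OV90 libraries. Both were called (limma adjusted p = 0.015 and 0.017), with no overlap. RPS6KA2, a ribosomal S6 kinase, had 2.07, 5.30 and 7.87 normalized reads in OV90CisR1 replicates 1 to 3, against 50.4, 64.2 and 23.4 in OV90 replicates 1 to 3, with a log2 difference of -2.97 (SE 0.49, limma adjusted p = 0.0038), and DUSP9, a phosphatase of ERK, 36.3 ± 8.65 in OV90CisR1 and 106 ± 33.5 in OV90 (log2 fold change -1.50, limma adjusted p = 0.008). Of 52 genes of PI3K, AKT and mTOR signalling, 3 rose and 4 fell, beside 12 falls without replicate 3 of both lines. SGK1, a kinase related to AKT (chromosome 6, 134169256 to 134318112), had 103, 95.5 and 68.5 in the OV90CisR1 libraries and 7.20, 10.7 and 1.80 in the OV90 libraries, with a log2 difference of 3.78 (SE 0.44, limma adjusted p = 0.00068). Of 13 genes of the insulin-like growth factor axis, 2 rose and 2 fell. IGFBP6, a binding protein that sequesters IGF2, had 239 ± 55.1 in OV90CisR1 and 107 ± 13.99 in OV90 (log2 fold change 1.13, limma adjusted p = 0.0071), and GRB14, an adaptor that inhibits the insulin receptor, was at least 10.3-fold higher, with 28 reads against none (limma adjusted p = 0.001). Of 30 growth factor ligands, 2 rose and 3 fell, among them FGF2, which had 74.4, 76.4 and 42.7 in the OV90CisR1 libraries and 139.9, 142 and 299 in the OV90 libraries, with a log2 difference of -1.52 (SE 0.31, limma adjusted p = 0.0099). Of 18 Hedgehog genes, 2 rose and none fell, and of 29 death receptors and caspases, CASP6 fell and none rose, beside 7 falls and 2 rises without replicate 3 of both lines. The CASP6 call ended without OV90 replicates 1 or 2 (0.054 to 0.06).

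Of 49 SOX, FOX, GATA and KLF factors, 4 rose (8.16%) and 3 fell (6.12%). SOX11, a factor of neural and embryonic progenitors (chromosome 2, 5692384 to 5701385), had 53.7, 44.5 and 42.7 normalized reads in OV90CisR1 replicates 1 to 3, against 3.08, 5.84 and 1.80 in OV90 replicates 1 to 3, with a log2 difference of 3.48 (SE 0.33, limma adjusted p = 0.00018), and OV90CisR2 had 167 ± 26.6. SOX8 had 208, 225 and 304 in the OV90CisR1 libraries and 77.1, 82.7 and 117 in the OV90 libraries, with a log2 difference of 1.41 (SE 0.21, limma adjusted p = 0.0025). Of 47 T-box, basic helix-loop-helix and ETS factors, 2 rose and 3 fell. TBX2, a T-box repressor (chromosome 17, 61399843 to 61409466), had 1596, 1644 and 2202 normalized reads in OV90CisR1 replicates 1 to 3, against 382, 360.1 and 1103 in OV90 replicates 1 to 3. OV90 replicate 3 was the highest of its group, with a log2 difference of 1.75 (SE 0.34, limma adjusted p = 0.0087). TBX6, of the mesoderm, had 31.4 ± 3.36 in OV90CisR1 and 8.97 ± 2.72 in OV90 (log2 fold change 1.74, limma adjusted p = 0.008). Of 32 nuclear receptors, 3 rose and 1 fell. NR4A2, a factor of dopamine neurons, had 885, 894 and 976 in the OV90CisR1 libraries and 362, 308 and 478 in the OV90 libraries, with a log2 difference of 1.28 (SE 0.16, limma adjusted p = 0.001). THRB, a thyroid hormone receptor, had 12.4, 13.8 and 12.4 normalized reads in OV90CisR1 replicates 1 to 3, against 40.1, 37.96 and 58.5 in OV90 replicates 1 to 3, with a log2 difference of -1.72 (SE 0.34, limma adjusted p = 0.0083). NR5A2, of liver and endoderm, had 12 reads in OV90CisR1 and none in OV90, at least 4.35-fold higher (limma adjusted p = 0.016), against a mean of 117 ± 11.9 in OV90CisR2. Of 60 homeobox factors outside the HOX, DLX and MSX families, 4 rose and 1 fell. PAX2, of kidney and Müllerian duct, had 17.6, 6.36 and 10.1 in the OV90CisR1 libraries and 1.03, 0.973 and 1.80 in the OV90 libraries, with a log2 difference of 2.36 (SE 0.49, limma adjusted p = 0.011), and IRX5 459 ± 40.6 in OV90CisR1 and 985 ± 249 in OV90 (log2 fold change -1.08, limma adjusted p = 0.0032). Of 427 ZNF genes, 25 rose (5.85%) and 9 fell (2.11%). Rises of ZNF genes numbered 6 without OV90 replicate 1. Falls of ZNF genes numbered 1 without OV90 replicate 1 and 5 without OV90CisR1 replicate 1 or OV90 replicate 2. ZNF512B had 159.8 ± 20.6 in OV90CisR1 and 57.1 ± 15.7 in OV90, and ZNF664 345 ± 87.8 in OV90CisR1 and 672 ± 76.3 in OV90 (SD, n = 3 each).

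Of 107 histone-modifying enzymes, 6 rose and 3 fell, of 81 genes of DNA methylation and chromatin remodelling, 7 rose and 2 fell, and of 32 histone genes, 1 rose and 4 fell. Rises of histone-modifying enzymes numbered 3 without OV90CisR1 replicates 1 or 3 or any OV90CisR2 library or OV90 replicate 1. Rises of the remodelling list numbered 2 without OV90 replicate 1 and 15 without OV90 replicate 3. Without replicate 3 of both lines, 22 of the 81 rose and 5 fell. HDAC4, a deacetylase, had 116 ± 9.14 in OV90CisR1 and 64.7 ± 3.49 in OV90, and SMYD2, a lysine methyltransferase, 71.9 ± 21.5 in OV90CisR1 and 171 ± 33.5 in OV90 (SD, n = 3 each; limma adjusted p = 0.012 and 0.01). HMGN5, which opens chromatin by binding nucleosomes, had 148, 191 and 217 normalized reads in OV90CisR1 replicates 1 to 3, against 327, 419.5 and 298 in OV90 replicates 1 to 3, with a log2 difference of -0.91 (SE 0.19, limma adjusted p = 0.01). None of 45 proteasome genes rose and 7 fell (15.6%), none of 74 translation factors rose and 10 fell (13.5%), and none of 75 mitochondrial ribosomal proteins rose and 6 fell (8%), beside 7.29% of all genes that fell and 8.54% that rose. The share of mitochondrial ribosomal proteins that fell was near that of all genes. Proteasome falls numbered 2 without OV90 replicate 1, 3 without OV90 replicate 2 and 4 without OV90 replicate 3. Translation factor falls numbered 3 without OV90 replicate 1 and 6 without OV90CisR2 replicates 1 or 3 or OV90 replicate 2. Mitochondrial ribosome falls numbered 2 without OV90 replicate 1, 3 without OV90CisR2 replicate 1 and 10 without OV90CisR1 replicate 1. With replicate 3 of both lines left out, 13, 15 and 12 fell and 1, 5 and 3 rose. In each list OV90 replicate 3 had the highest median, at 0.28, 0.19 and 0.29. PSMB9, a catalytic subunit of the immunoproteasome, had 106, 64.7 and 85.4 in the OV90CisR1 libraries and 315, 259 and 189 in the OV90 libraries, with a log2 difference of -1.56 (SE 0.23, limma adjusted p = 0.0021). EIF5, which helps select the start codon (chromosome 14, 103334237 to 103345025), had 1378, 1441 and 1216 normalized reads in OV90CisR1 replicates 1 to 3, against 2643, 2608 and 2611 in OV90 replicates 1 to 3, with a log2 difference of -0.97 (SE 0.11, limma adjusted p = 0.00066). Of 152 splicing factors, 7 rose and 8 fell, beside 27 and 15 without replicate 3 of both lines. Splicing factor rises numbered 1 without OV90 replicate 1, 2 without OV90 replicate 2 and 14 without OV90 replicate 3. Splicing factor falls numbered 1 without OV90 replicate 1 and 4 without any OV90CisR2 library or OV90 replicate 2. CLK1, a kinase of splicing factors, had 221, 223 and 285 in the OV90CisR1 libraries and 111, 138 and 130.4 in the OV90 libraries, with a log2 difference of 0.93 (SE 0.17, limma adjusted p = 0.0062). KHDRBS3, which binds RNA, had 29.8 ± 8.19 in OV90CisR1 and 103 ± 35.2 in OV90 (log2 fold change -1.73, limma adjusted p = 0.0051). Of 32 host genes of small nucleolar RNAs, 5 rose (15.6%) and 2 fell. Host gene rises numbered 3 without OV90 replicates 1 or 2. SNHG25 had 2159, 1845 and 2805 normalized reads in OV90CisR1 replicates 1 to 3, against 849, 928 and 738 in OV90 replicates 1 to 3, with a log2 difference of 1.42 (SE 0.18, limma adjusted p = 0.0011). ZFAS1 had 1395, 1783 and 539 in the OV90CisR1 libraries and 2788, 2622 and 2141 in the OV90 libraries, and its call ended without any library except OV90CisR1 replicates 2 and 3 (0.051 to 0.13).

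Of 70 purine and pyrimidine genes, 3 rose and 7 fell (10%), of 31 serine, folate and one-carbon genes, 2 rose and 3 fell, and of 36 genes of polyamine, glutamine and proline metabolism, 2 rose and 3 fell. Purine and pyrimidine falls numbered 2 without OV90 replicate 1 and 4 without OV90 replicate 2. AK4, an adenylate kinase of mitochondria (chromosome 1, 65147552 to 65232145), had 83.7, 58.3 and 50.6 normalized reads in OV90CisR1 replicates 1 to 3, against 247, 242 and 196 in OV90 replicates 1 to 3, with a log2 difference of -1.84 (SE 0.22, limma adjusted p = 0.00074). APRT, which salvages adenine, had 20.7, 21.2 and 20.2 in the OV90CisR1 libraries and 1.03, 1.95 and 2.70 in the OV90 libraries, with a log2 difference of 2.95 (SE 0.32, limma adjusted p = 0.00045), and OV90CisR2 averaged 125 ± 24. PSAT1, an enzyme of serine synthesis (chromosome 9, 78297125 to 78330093), had 142, 178 and 88.8 normalized reads in OV90CisR1 replicates 1 to 3, against 551, 535 and 289 in OV90 replicates 1 to 3, with a log2 difference of -1.74 (SE 0.31, limma adjusted p = 0.0057), and MTHFD2, of the mitochondrial folate cycle, 978 ± 196 in OV90CisR1 and 1677 ± 128 in OV90 (log2 fold change -0.79, limma adjusted p = 0.0076). TYMS, thymidylate synthase, had 1111 ± 202 in OV90CisR1 and 1958 ± 445 in OV90, not called without OV90 replicate 1 (0.054). SMS, which makes spermine, had 519, 556 and 538 in the OV90CisR1 libraries and 757, 733 and 944 in the OV90 libraries, with a log2 difference of -0.58 (SE 0.13, limma adjusted p = 0.015). GOT1, a transaminase of aspartate, had 370.5 ± 18.99 in OV90CisR1 and 619 ± 93.5 in OV90 (log2 fold change -0.73, limma adjusted p = 0.01). Of 57 genes of xenobiotic and steroid metabolism, 6 rose (10.5%) and 3 fell. Rises numbered 3 without OV90 replicate 2. EPHX1, which opens epoxides, had 113, 93.3 and 95.5 normalized reads in OV90CisR1 replicates 1 to 3, against 51.4, 43.8 and 33.3 in OV90 replicates 1 to 3, with a log2 difference of 1.23 (SE 0.24, limma adjusted p = 0.0082), and DHRS2 had 30.99, 27.6 and 13.5 in the OV90CisR1 libraries and 106, 79.8 and 102 in the OV90 libraries, with a log2 difference of -2.03 (SE 0.32, limma adjusted p = 0.0029). CYP1B1 fell to 7.85 ± 0.42 in OV90CisR1, against 30.5 ± 14.7 in OV90, but not without OV90 replicates 1 or 2 (0.061 to 0.073).

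Of 69 synaptic and axonal genes, 9 rose (13%) and 11 fell (15.9%). Rises numbered 3 without OV90 replicate 1 and 5 without OV90 replicate 2. Falls numbered 6 without OV90 replicate 1. GRIN2B, a subunit of NMDA receptors, had 9.30, 3.18 and 6.74 normalized reads in OV90CisR1 replicates 1 to 3, against 23.6, 32.1 and 101 in OV90 replicates 1 to 3, with a log2 difference of -2.65 (SE 0.53, limma adjusted p = 0.0089). SORL1, a sorting receptor of neurons, had 34.1, 47.7 and 11.2 in the OV90CisR1 libraries and 166, 162 and 76.5 in the OV90 libraries, with a log2 difference of -2.22 (SE 0.46, limma adjusted p = 0.011). Of 67 SNARE proteins and synaptotagmins, 4 rose and 6 fell, beside 17 falls without replicate 3 of both lines. SNARE falls numbered 1 without OV90 replicates 1 or 2, 3 without OV90CisR1 replicates 1 or 2 or OV90CisR2 replicate 3 and 12 without OV90 replicate 3. SNAP25, which fuses synaptic vesicles, had 104 reads in OV90CisR1 and 2 in OV90, a ratio of 57.8 (95% exact counting interval 15.6 to 483; limma adjusted p = 0.0002). VGF, a neuropeptide precursor, had 139.8 ± 32.4 in OV90CisR1 and 61.9 ± 10.5 in OV90 (log2 fold change 1.15, limma adjusted p = 0.01). The 10 neuroendocrine markers summed to 433 to 478 in OV90CisR1 and 252 to 586 in OV90, with INSM1, NEUROD1 and PCSK1 at 0 in OV90CisR1. Of 10 endothelial markers 7, and of 12 leukocyte markers 5, were at 0 in OV90CisR1, where the markers summed to 19.1 to 51.7 and 82.0 to 142, against 17.1 to 22.6 and 26.1 to 71.0 in OV90. 

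Of 57 autophagy genes 4 rose and 6 fell, of 99 cilium genes 3 and 8, of 36 imprinted genes 2 and 4, of 48 cancer-testis and germ cell genes 2 and 4, and of 19 trophoblast and pluripotency genes 2 and 2. Autophagy falls numbered 3 without OV90CisR2 replicates 1 or 3 or OV90 replicates 1 or 2 and 11 without OV90 replicate 3. Cilium falls numbered 0 without OV90 replicate 1 and 3 without OV90 replicate 2. The rises of the last list were CGA, the alpha subunit of glycoprotein hormones, with 2030 ± 257 in OV90CisR1 and 15.2 ± 14.2 in OV90 (log2 fold change 7.69, limma adjusted p = 0.00018), and ERVMER34-1, an envelope gene of an endogenous retrovirus, with 161, 173 and 193 in the OV90CisR1 libraries and 41.1, 38.9 and 162 in the OV90 libraries. ERVMER34-1 overlapped between the lines, and its call ended without any library except OV90 replicate 3 (0.066 to 0.15). UTF1, a factor of pluripotent cells, had 8.26, 4.24 and 4.49 normalized reads in OV90CisR1 replicates 1 to 3, against 33.9, 29.2 and 19.8 in OV90 replicates 1 to 3, with a log2 difference of -2.12 (SE 0.38, limma adjusted p = 0.0056), and PODXL, a sialomucin, 11.4 ± 1.21 in OV90CisR1 and 40.6 ± 12.6 in OV90 (log2 fold change -1.70, limma adjusted p = 0.0071). KCNQ1OT1, an imprinted noncoding RNA, had 1046, 1317 and 1185 in the OV90CisR1 libraries and 318, 632 and 341 in the OV90 libraries, with a log2 difference of 1.52 (SE 0.22, limma adjusted p = 0.0021). Of 63 nuclear pore genes 3 rose and 1 fell, of 42 aminoacyl-tRNA synthetases 2 and 2, of 39 TRIM ubiquitin ligases 1 and 1, and of 21 genes of complement and pattern recognition 1 and 1.

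With replicate 3 of both lines left out, when 13.8% of all genes rose and 13.6% fell, the rises and falls numbered 14 and 3 of calcium, sodium and chloride channels, 1 and 8 of regulators of G protein signalling, 6 and 1 of Eph receptors and ephrins, 6 and 8 of MAP kinase feedback regulators and 4 and 4 of the insulin-like growth factor axis. They were 3 and 2 of Hedgehog genes, 13 and 7 of glycosyltransferases, 7 and 4 of serpins, cystatins and cathepsins, 6 and 4 of growth factor ligands and 1 and 3 of complement and pattern recognition. The counts were also 8 and 2 of amino acid transporters, 9 and 3 of carriers of sugars and organic ions, 11 and 9 of zinc, iron and heme handling, 3 and 8 of serine and folate metabolism and 9 and 9 of purine and pyrimidine metabolism. Among further lists they numbered 5 and 7 of polyamine metabolism, 1 and 12 of fatty acid oxidation and peroxisomes, 11 and 10 of xenobiotic metabolism, 6 and 16 of autophagy and 2 and 4 of TRIM ligases. In the same fit there were 6 and 14 of cilium genes, 11 and 5 of histone-modifying enzymes, 4 and 4 of histone genes, 8 and 8 of SOX, FOX, GATA and KLF factors and 10 and 8 of homeobox factors. The remaining such lists had 7 and 6 of T-box, helix-loop-helix and ETS factors, 7 and 2 of nuclear receptors, 39 and 26 of ZNF genes, 4 and 5 of aminoacyl-tRNA synthetases and 9 and 7 of host genes of small nucleolar RNAs. Further counts of this fit were 9 and 1 of nuclear pore genes, 5 and 8 of cancer-testis genes and 5 and 3 of trophoblast and pluripotency genes.

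The share of called genes also differed between chromosomes. Of 245 tested genes on chromosome 13, 39 rose (15.9%) and 3 fell (1.22%), with a median log2 fold change of 0.25. Of 198 on chromosome 18, 10 rose (5.05%) and 32 fell (16.2%), with a median of -0.23. Of 505 on chromosome 14, 38 rose (7.52%) and 73 fell (14.5%), with a median of -0.10, and of 1024 on chromosome 19, 106 rose (10.4%) and 29 fell (2.83%), with a median of 0.14. Without replicate 3 of both lines the medians were 0.17, -0.15, -0.10 and 0.12. On chromosome 13 the library medians were 0.33, 0.37 and 0.14 in OV90CisR1 and 0.15, 0.20 and -0.34 in OV90, so OV90CisR1 replicate 3 lay below OV90 replicates 1 and 2. On chromosomes 14, 18 and 19 the lines did not overlap. On chromosome 18 the library medians were -0.17, -0.14 and -0.24 in OV90CisR1 and from -0.03 to 0.04 in OV90. Medians for OV90CisR2 against OV90, which shares the OV90 libraries, were 0.27 on chromosome 13, -0.13 on chromosome 18, -0.19 on chromosome 14 and 0.03 on chromosome 19.

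In windows of 10 Mb with at least 15 tested genes, of which there were 274, median log2 fold changes ran from -0.61 to 0.60. The 4 highest windows were chromosome 22 from 50 Mb to its end, chromosome 13 from 30 to 40 Mb and from 100 to 110 Mb, and chromosome 3 from 160 to 170 Mb, with medians of 0.60, 0.59, 0.58 and 0.38. Without replicate 3 of both lines these were 0.45, 0.41, 0.46 and 0.40, and chromosome 3 from 70 to 80 Mb was the highest, at 0.54 (0.38 with all libraries). In the window of chromosome 22, 8 of 27 genes rose and none fell, and in that of chromosome 13 from 30 to 40 Mb, 12 of 30 rose and 1 fell. The lowest windows were chromosome 18 from 0 to 10 Mb, where 15 genes fell and none rose, chromosome 5 from 110 to 120 Mb, chromosome 3 from 20 to 30 Mb and chromosome 7 from 60 to 70 Mb, with medians of -0.61, -0.51, -0.47 and -0.46. Without replicate 3 of both lines these were -0.57, -0.26, -0.37 and -0.17. CLUL1 on chromosome 18 had 12.4, 2.12 and 10.1 normalized reads in OV90CisR1 replicates 1 to 3, against 47.3, 66.2 and 39.6 in OV90 replicates 1 to 3, with a log2 difference of -2.72 (SE 0.52, limma adjusted p = 0.0075). MICOS10P1, a pseudogene on chromosome 13, had 50.6, 76.4 and 48.3 in the OV90CisR1 libraries and 13.4, 12.7 and 10.8 in the OV90 libraries, with a log2 difference of 2.14 (SE 0.31, limma adjusted p = 0.0021). On chromosome 3, TERC, the RNA of telomerase, had 48.5, 35 and 93.3 normalized reads in OV90CisR1 replicates 1 to 3, against 16.4, 16.6 and 12.6 in OV90 replicates 1 to 3, with a log2 difference of 1.78 (SE 0.36, limma adjusted p = 0.01). Whether these reads come from the mature TERC RNA was not tested. On chromosome 5, CCDC112 had 148, 147 and 155 in the OV90CisR1 libraries and 331, 327 and 279 in the OV90 libraries, with a log2 difference of -1.05 (SE 0.14, limma adjusted p = 0.0014), and AP3S1, of an endosomal adaptor, 136 ± 6.33 in OV90CisR1 and 311 ± 44.9 in OV90. On chromosome 7, SBDS, which matures ribosomes, had 408, 346 and 337 normalized reads in OV90CisR1 replicates 1 to 3, against 702, 534 and 655 in OV90 replicates 1 to 3, with a log2 difference of -0.79 (SE 0.14, limma adjusted p = 0.0062). DNA copy number was not measured in these files.

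**Figure D5:**
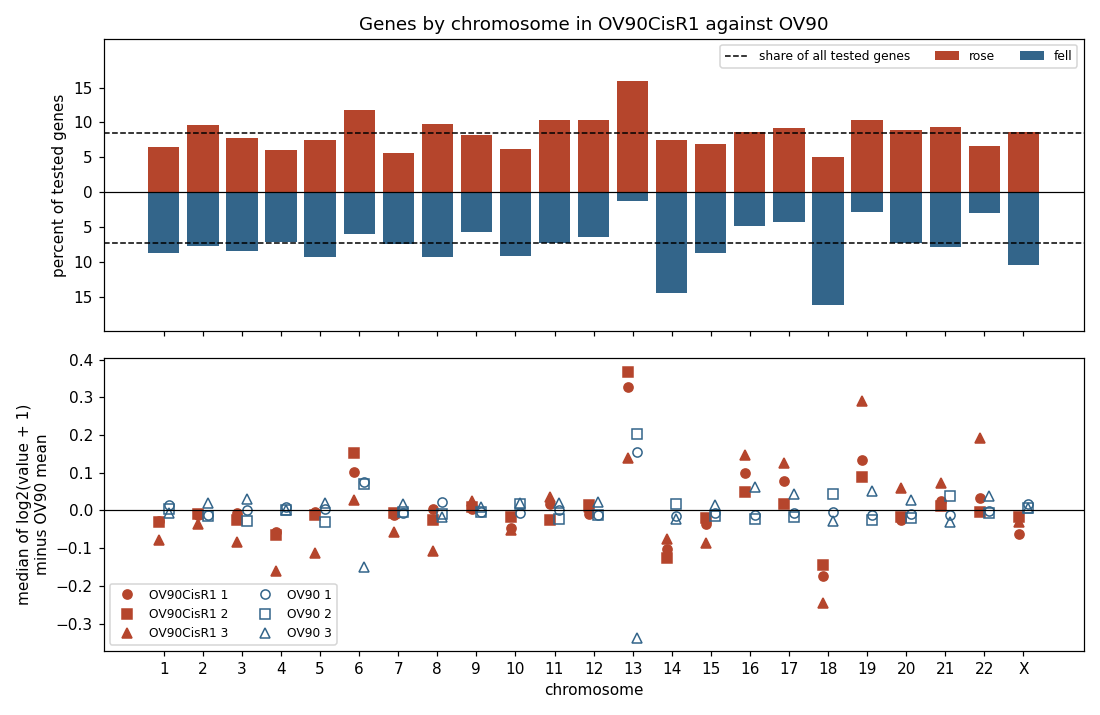
Upper panel, percent of tested genes on each chromosome that rose (red, above 0) or fell (blue, below 0) in OV90CisR1 against OV90, with dashed lines at the shares of all tested genes (8.54% and 7.29%). Lower panel, median per library of log2(value + 1) minus the gene's OV90 mean, for OV90CisR1 (filled, red) and OV90 (open, blue). Chromosome 13 has the largest share of rises, 15.9%, and chromosome 18 the largest share of falls, 16.2%.

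OV90CisR1 was also set against the other resistant line. Of the 14233 genes, 1433 (10.1%) passed limma's test between OV90CisR1 and OV90CisR2. This count was 450, 663 and 442 without OV90CisR2 replicates 1, 2 and 3, 952 without OV90CisR1 replicate 1 and 2327 without OV90 replicate 3. For genes described above, CLDN11, KCNJ4, SDC2, MYLK and CCN2 were among those that differed between the resistant lines, with limma adjusted p of 0.00015, 0.00067, 4e-05, 0.0011 and 0.00011. For NTS, AK4, PIEZO2 and SGK1 the difference between the resistant lines did not pass (0.2, 0.58, 0.7 and 0.11), with OV90CisR2 means of 98.1 ± 19.3, 72.5 ± 7.67, 115 ± 23.6 and 203 ± 35.05. COL11A1, SOX11 and MEF2C were higher in OV90CisR2 than in OV90CisR1 (0.0011, 0.0079 and 0.0019), where SOX11 did not pass without OV90CisR2 replicate 3 (0.055).

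Of the 317 named genes with a RefSeq position, 57 overlap another tested gene. Among them are CTSA, CHPF, MYLK, NIBAN1, EIF5, PIEZO2, SGK1, SLC5A3, CLUL1 and MICOS10P1, the last of which overlaps N4BP2L2. Reads of overlapping genes cannot be told apart here because the sources used here do not give the counting rules.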

How the data were processed

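Gene expression was measured by 3′ mRNA sequencing (QuantSeq) in 9 libraries, 3 each of OV90CisR1, OV90CisR2 and OV90, grouped by the labels. The deposited table holds a normalized signal per gene symbol. Per the submitters' processing notes, Bowtie2, bedtools, edgeR and GRCh38 were used, without versions or roles. The annotation, the counting rule and the use of strand are not named in the sources used. Every deposited value was a whole number of reads (tolerance 1e-06) divided by 1 factor per library, so reads were recovered by multiplication. Genes with at least 1e-06 of the column total in 3 of 9 libraries were tested (14233 of 43424) with limma 3.58.1 (R 4.3.3) on log2(value + 1), with a variance trend, 3 group means and Benjamini-Hochberg adjustment at 0.05. On this scale the change of low genes is understated. Log2 fold changes are OV90CisR1 minus OV90. A gene with 0 reads in a line was given a bound against 3 reads over that line's libraries, and a gene with 1 to 3 reads the ratio with an exact counting interval. Intervals and bounds cover counting error only.

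The genes named were the largest changes without overlap, the smallest p at 2-fold or more, the largest changes among the 500 most abundant genes, genes at 0 in every library of 1 line, up to 3 rises and 3 falls of each of 57 lists, and genes of the extreme 10 Mb windows. Some genes this rule picks, and 1 of the lists, are not reported here. The comparison, lists and members were chosen with earlier results of these data known, and lists are described by counts, with no test. Positions and promoters are from RefSeq on GRCh38.p14. Alternatives were other pseudocounts, filters, scalings and variance models, a fit of 2 lines, a replicate block, leaving out libraries, and, on the recovered reads, edgeR 4.0.16 (quasi-likelihood) and DESeq2 1.42.0. Of these fits, only the main limma fit was run on simulated data, where changes were given only to genes above the median level. It called 72 of 100 genes changed 2-fold, 97 of 100 changed 4-fold and 16 of 14033 unchanged genes. The simulated libraries were drawn independently, so none stood apart as replicate 3 of OV90 and of OV90CisR1 did. These counts therefore do not give the error of the fit on the real libraries.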

Additional observations from a re-analysis of the deposited data

Results flagged for a closer look

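CDC42EP3, which encodes an effector of the GTPase CDC42, moved in opposite directions in the resistant lines relative to OV90. It had 5.17, 2.12 and 3.37 normalized reads in OV90CisR1 replicates 1 to 3, against 14.4, 18.5 and 6.30 in OV90 replicates 1 to 3, and OV90CisR2 averaged 60.2 ± 1.88. The difference of OV90CisR1 minus OV90CisR2 was -3.80 on the log2 scale, tested directly between the lines (limma adjusted p = 0.00062). The call of OV90CisR1 against OV90 ended without OV90CisR1 replicate 2, without OV90 replicates 1 or 2 and without any OV90CisR2 library (0.054 to 0.1).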

How the results depend on the processing

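The count of genes called between OV90CisR1 and OV90, 2252, lay between 1761 and 2788 under other pseudocounts, filters, scalings and variance models, with edgeR on the recovered reads (2286) and with DESeq2 (2788), which are all within 1.5 times. It was 771 with only the 2 lines in the fit and 3901 without replicate 3 of both lines. The main fit also takes its estimate of spread from the OV90CisR2 libraries, which correlated with each other at 0.978 to 0.982. The part of these libraries in the drop to 771 was not tested. Leaving out 1 library gave 939 to 2467. Between OV90CisR1 and OV90CisR2 the count was 1433, and 3750 without replicate 3 of OV90CisR1 and OV90, a setting chosen after seeing the data. Leaving out 1 library gave 442 to 2327. The share of rises among the calls against OV90 was 54% and ran from 50.1% to 61.6%. Of the 319 named genes, 305 were called by edgeR, 316 by DESeq2, 299 without replicate 3 of both lines and 164 with only the 2 lines in the fit, and none changed direction in any of these settings. The causes were not tested. The same replicate numbers were used in all lines. With the replicate number as a block, 1615 genes were called against OV90, 875 between the resistant lines, and 260 of the named genes. Deviations of OV90CisR1 and OV90 libraries with the same number correlated at 0.04, -0.02 and -0.04, and none matched its own number best. Whether libraries with the same number share a batch or a culture day is not stated and cannot be told from these values. At this depth 3 reads correspond to values of 2.62 to 3.37, and 29191 genes were too low to be tested.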

Other observations

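Further genes were near 0 in 1 line. ALX1, a homeobox factor of facial development, had 23 reads over the OV90CisR1 libraries and 1 over the OV90 libraries, a ratio of 25.6 after scaling (95% exact counting interval 4.15 to 1050). LINC00437, a long noncoding RNA, had 28 reads in OV90CisR1 and 1 in OV90 (ratio 31.1, interval 5.14 to 1270). SCN2A, a voltage-gated sodium channel, had 22 reads in OV90CisR1 and 3 in OV90 (ratio 8.15, interval 2.45 to 42.5). PREX2, an exchange factor for Rac, had 9 reads in OV90CisR1 and none in OV90, at least 3.35-fold higher. TUBA4A, an alpha tubulin, had 1 read in OV90CisR1 and 16 in OV90, a ratio of OV90 over OV90CisR1 of 14.4 (interval 2.24 to 604). Called between OV90CisR1 and OV90 in the limma test, LINC00437 did not pass without OV90CisR1 replicates 1 or 2 or OV90 replicate 1, SCN2A without OV90 replicate 1, PREX2 without OV90CisR1 replicates 2 or 3, OV90CisR2 replicates 1 or 3 or OV90 replicates 1 or 2, and TUBA4A without any library except OV90CisR1 replicate 1 and OV90 replicate 2 (limma adjusted p between 0.05 and 0.11).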
